A study of Homo sapiens with 18 samples.

Results

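TFRC, which encodes the transferrin receptor, and 6 further genes of cellular iron handling were followed in NCI-H1299, a human lung cancer cell line that was given plasmids for T-box (TBX) transcription factors. The 7 genes, TFRC, FTH1, FTL, IREB2, ACO1, SLC11A2 and SLC40A1, were chosen by name and found in the count table by their Ensembl identifiers, and they are 7 of its 63677 genes. They were selected with earlier results of these data known. TFRC in particular was proposed from its own counts, so its values and fold changes are a description and carry no test. RNA was sequenced from 18 libraries in 6 groups of 3. Cells had been transfected with a plasmid for human Flag-tagged TBX2, human HA-tagged TBX3, human Flag-tagged TBX4 or mouse HA-tagged Tbx5, or with the empty vector (EV), and the 6th group is labelled Ctl, with no treatment named in the labels. All libraries come from this 1 line, grown in the same serum-containing medium, and the plasmids were delivered by transient transfection with a lipid reagent. TBX2 and TBX4 were in a pORF plasmid and TBX3 and Tbx5 in a pCGN plasmid. The labels do not name the backbone of EV. Where backbones differ, backbone and TBX cannot be told apart. No label says whether the 3 libraries of a group came from separate cultures, and p-values measure the spread between these libraries, which may be technical.

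A cell takes up iron by binding iron-loaded transferrin to the transferrin receptor and carrying the complex into endosomes, where SLC11A2 (DMT1) moves the released iron to the cytosol. Iron that is not used is stored inside ferritin, a shell built from a heavy chain (FTH1), which oxidises iron, and a light chain (FTL), and SLC40A1 (ferroportin) is the exporter through which iron leaves the cell. When iron is scarce, the iron regulatory proteins ACO1 (IRP1) and IREB2 (IRP2) bind short RNA hairpins called iron-responsive elements, which keeps the TFRC message from decay and holds back translation of the ferritin and ferroportin messages. Much of this control acts on translation and protein, which a count of messages does not show. Proliferating cancer cells are known for a high demand for iron.

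The hairpins by which these messages are read are printed here because they set TFRC apart from the ferritin and ferroportin genes. The GENCODE transcripts of each gene (GRCh37), canonical and other, were searched for a loop of CAGTGN closed by a stem of 5 base pairs. G-U pairs were allowed, and a C was required just before the stem, with no check that it was unpaired. All matches printed here lie in the canonical transcript of their gene. TFRC held 4 matches, all in the 3′ untranslated region, and FTH1, FTL and SLC40A1 held 1 each in the 5′ untranslated region. No match was found in IREB2, ACO1 or SLC11A2, which says only that these letters are not in the transcripts searched. Of 19553 canonical protein-coding transcripts, 1.3% held a match anywhere, 0.619% in the 3′ and 0.0921% in the 5′ untranslated region, and TFRC was the 1 transcript with at least 4 in the 3′ untranslated region. The 30 bases around each match are given 5′ to 3′ on the strand of the message, with the 6 bases of the loop in capitals.
TFRC, chr3:195777849-195777878 (minus strand): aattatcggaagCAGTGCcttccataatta
TFRC, chr3:195777445-195777474 (minus strand): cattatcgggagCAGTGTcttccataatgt
TFRC, chr3:195777380-195777409 (minus strand): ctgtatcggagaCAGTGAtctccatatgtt
TFRC, chr3:195777333-195777362 (minus strand): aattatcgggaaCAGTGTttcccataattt
FTH1, chr11:61735045-61735074 (minus strand): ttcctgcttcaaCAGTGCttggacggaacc
FTL, chr19:49468592-49468621 (plus strand): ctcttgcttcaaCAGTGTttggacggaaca
SLC40A1, chr2:190445386-190445415 (minus strand): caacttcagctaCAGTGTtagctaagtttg

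The promoter of TFRC is shown because the transfected proteins bind DNA. The 250 bases before its start, at chr3:196082091-196082340 on the minus strand (GRCh38.p14, sequence from RefSeq), were searched on both strands for GGTGTGA, a T-box half-site, for ACGTG, the core of a hypoxia response element, for CACGTG, an E-box that contains ACGTG, and for TGANTCA, an AP-1 site. The match, in capitals, is to ACGTG, which 18.5% of all 35116 promoters of the same length hold, and there was no match to GGTGTGA (2.76% of promoters), CACGTG (6.34%) or TGANTCA (6.57%).
TFRC promoter: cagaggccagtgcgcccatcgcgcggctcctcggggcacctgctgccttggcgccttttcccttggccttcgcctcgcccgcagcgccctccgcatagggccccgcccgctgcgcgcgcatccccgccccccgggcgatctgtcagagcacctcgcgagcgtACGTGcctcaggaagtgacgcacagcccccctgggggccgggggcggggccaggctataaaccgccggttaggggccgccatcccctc

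Libraries held 7365221 to 11743179 counts, and 15576 genes entered the tests, those whose count exceeded 5 in 10 or more libraries. All 7 genes passed, with at least 8 counts in every library. A gene without a symbol, ENSG00000266658, took from 10.7% (TBX3 replicate c) to 53.5% (TBX5 replicate b) of a library's counts. Levels are therefore given as CPM, a library's counts rescaled to a common depth, on TMM-scaled library sizes. The transfected gene was high in its own libraries, from 4086 to 4821 CPM for TBX2, 17745 to 25411 CPM for TBX3, 7543 to 8497 CPM for TBX4 and 129 to 242 CPM for the human TBX5 gene, against at most 13.2 CPM in any other library. The Tbx5 plasmid carried the mouse gene and reads were aligned to the human genome, so counts on human TBX5 may miss part of its message. The label of TBX4 replicate c reads 4c-TBX5. The library had 85197 counts of TBX4 and 1 of TBX5, and it was taken by its number as a TBX4 library, with results also given without it. The epithelial keratins KRT8 (19.3 to 52.7 CPM) and KRT18 (43.2 to 75.8 CPM) and the mesenchymal VIM (692 to 970 CPM) were present in every library. They were not level between groups. With TBX2, KRT8, KRT18 and VIM were lower than in EV by -0.86, -0.60 and -0.26 on the log2 scale (adjusted p = 1.27e-06, 2.15e-05 and 0.0243, edgeR), and with TBX3 by -0.54, -0.46 and -0.19 (adjusted p = 0.00058, 0.000159 and 0.0815, edgeR). All 3 passed against Ctl as well with both TBXs, and the part of this in the changes of the iron genes was not tested. Of other markers, the epithelial marker EPCAM had at most 3 counts, the leucocyte marker PTPRC at most 4 and the liver marker ALB at most 6.

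TFRC was the second most abundant message of the 7 per length of its canonical transcript, with a median over the 18 libraries of 27.4 CPM per kb, after FTL with 410 CPM per kb. Its place above FTH1 (9.83 CPM per kb) rests on FTH1 counts that are uncertain for the reasons given with that gene. TFRC (ENSG00000072274) is on chromosome 3, where its canonical transcript covers positions 195776155 to 195808961 in GRCh37. Its level was lowest in Ctl, with 115, 109 and 106 CPM in replicates a, b and c. The EV libraries held 151, 148 and 163 CPM, the TBX2 libraries 132, 135 and 141 CPM and the TBX3 libraries 140, 149 and 176 CPM. The TBX4 libraries held 134, 124 and 140 CPM and the TBX5 libraries 145, 125 and 125 CPM. In CPM every one of the 15 transfected libraries thus lay above every Ctl library. The TBX2, TBX4 and TBX5 libraries lay between Ctl and EV without overlapping either. Of all tested genes, 7.68% (EV) to 18.3% (TBX2) lay wholly above Ctl in a single transfected group. The share for all these groups at once was not counted. TBX3 overlapped EV, and its replicate c was the highest of all 18 libraries.

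In order of the group means, TFRC stood at 110 ± 4.57 CPM (SD, n = 3) in Ctl, 132 ± 11.8 CPM in TBX5, 133 ± 7.87 CPM in TBX4, 136 ± 4.85 CPM in TBX2, 154 ± 7.94 CPM in EV and 155 ± 18.5 CPM in TBX3. Of these neighbours, TBX5, TBX4 and TBX2 did not differ beyond their spread, and neither did EV and TBX3. The largest difference between neighbours separates Ctl from all transfected groups, and the next separates EV from TBX2.

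**Figure D1:**
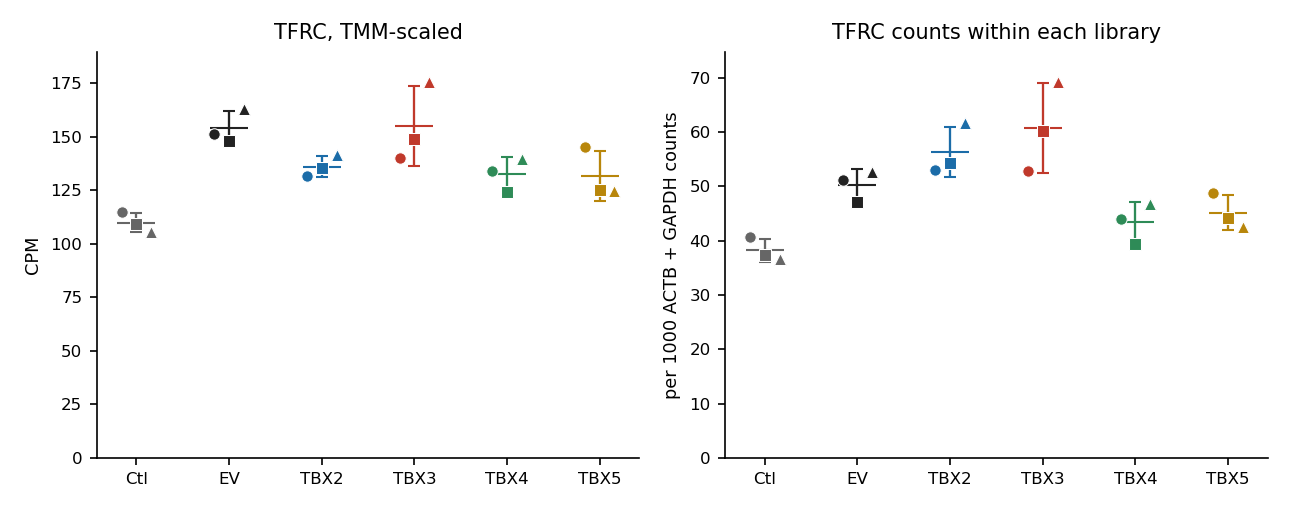
TFRC by group in CPM on TMM-scaled library sizes (left) and as TFRC counts per 1000 counts of ACTB and GAPDH in the same library (right); circles, squares and triangles are replicates a, b and c, and bars give the mean and SD of 3 libraries. On the left Ctl lies below all other groups (106 to 115 CPM), and on the right TBX2 (53.0 to 61.6) and TBX3 (52.9 to 69.3) lie above EV (47.1 to 52.6).

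The direction of the TFRC difference depended on which control was used. Against EV, TFRC had a log2 fold change of -0.18 ± 0.07 (SE) with TBX2, -0.23 ± 0.06 with TBX4 and -0.22 ± 0.07 with TBX5, and of 0.01 ± 0.07 with TBX3. Against Ctl the log2 fold changes were 0.31 ± 0.07, 0.27 ± 0.06, 0.26 ± 0.07 and 0.50 ± 0.08 in the same order. The 3 differences that were negative against EV were positive against Ctl, and in each of these 6 comparisons the libraries of the groups did not overlap. Of all tested genes, 17.7%, 11.5% and 12.4% likewise lay wholly below EV with TBX2, TBX4 and TBX5, and 18.3%, 13.4% and 12.8% wholly above Ctl. EV itself was above Ctl, with a log2 fold change of 0.49 ± 0.06, or 40.4% more TFRC. The EV libraries lay wholly above Ctl, as did those of 7.68% of all tested genes. In this comparison 0.385% of all tested genes passed an adjusted p under 0.1 by edgeR's quasi-likelihood test, and TFRC was not tested. With the 6 control libraries pooled, the log2 fold change was 0.24 for TBX3, 0.04 for TBX2, -0.0011 for TBX4 and -0.00096 for TBX5.

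With each library left out in turn, TFRC kept its sign in these comparisons except TBX3 against EV, which ranged from -0.10 to 0.08. EV against Ctl ranged from 0.44 to 0.52, and without TBX4 replicate c, TBX4 stood at -0.26 against EV and 0.23 against Ctl. The share of ENSG00000266658 was 32.7% and 34.7% in EV replicates a and b and 30.3% to 40.2% in Ctl, and 12.4% in EV replicate c, where TFRC was the highest of its group. TBX3 replicate c (10.7%) and TBX5 replicate a (22.5%) also had the lowest share and the highest TFRC of their groups. TBX2 replicate a (19.6%) had the lowest share and the lowest TFRC of its group. In 2 of 6 groups the library with the largest share had the highest TFRC, and in 2 the lowest. The EV replicates a and b, at 151 and 148 CPM, lay above the 106 to 115 CPM of Ctl, and the part of this share in the difference was not tested. Using library totals for the scaling moved the median log2 fold change of all tested genes by up to -0.40 (TBX5 against EV) and 0.57 (TBX4 against TBX5). On that scale TFRC stayed below EV with TBX2 (-0.28), TBX4 (-0.07) and TBX5 (-0.61), was below EV with TBX3 (-0.14), and stayed above Ctl with TBX2 (0.41), TBX3 (0.55), TBX4 (0.62), TBX5 (0.08) and EV (0.69).

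A ratio within a library does not depend on the scaling. TFRC counts per 1000 ACTB and GAPDH counts, genes of the cytoskeleton and of glycolysis, were 38.2 ± 2.11 (SD, n = 3) in Ctl, 50.3 ± 2.84 in EV, 56.3 ± 4.65 in TBX2, 60.8 ± 8.24 in TBX3, 43.4 ± 3.68 in TBX4 and 45.2 ± 3.22 in TBX5. By this ratio TBX2 turned from below EV to above it, and TBX3, level with EV in CPM, also lay above it. TBX5, wholly below EV in CPM, overlapped EV by the ratio, with 48.8 in TBX5 replicate a against 47.1 in EV replicate b. TBX4 stayed wholly below EV, at 39.4 to 46.7. TBX4, wholly above Ctl in CPM, overlapped Ctl by the ratio, with 39.4 in TBX4 replicate b against 40.6 in Ctl replicate a. ACTB was at 991 ± 77.4 CPM with TBX2 against 1216 ± 37.3 CPM in EV, and GAPDH at 1433 ± 155.6 CPM against 1849 ± 88.1 CPM, so the reference was itself lower in the TBX2 libraries. It was lower with TBX3 too, where ACTB was at 1043 ± 61.8 CPM and GAPDH at 1512 ± 40.6 CPM. Per 1000 counts of FTH1 the ratio varied by more than the groups differed, from 8289 to 24259 within TBX5 alone.

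Of the storage genes, FTL was the most abundant of the 7 and was highest with TBX2. FTL (ENSG00000087086, chromosome 19, 49468566 to 49470136) held 394, 455 and 400 CPM in the TBX2 libraries. Ctl held 312, 325 and 335 CPM and EV 364, 367 and 376 CPM. The TBX2 libraries therefore lay above both controls, and the EV libraries above the Ctl libraries. Of all tested genes, 17.7% lay wholly above EV and 18.3% wholly above Ctl with TBX2, and 7.68% wholly above Ctl in EV. FTL rose with TBX2 against Ctl by 0.36 ± 0.08 on the log2 scale (adjusted p = 0.00354) by edgeR's quasi-likelihood test, in a comparison that called 25.8% of all genes. Against EV, where 26.7% of all genes were called, it did not pass (0.18 ± 0.08, adjusted p = 0.107, edgeR). The TBX5 libraries held 333, 320 and 315 CPM, all below EV, as for 12.4% of all tested genes, and overlapping Ctl. FTL fell with TBX5 against EV by 0.19 on the log2 scale (adjusted p = 0.0810, edgeR), where 8.97% of all genes were called, and stood at -0.01 ± 0.06 against Ctl. DESeq2 did not make the TBX5 call, which was also lost without any of the 3 EV libraries or without TBX5 replicate b or c. The TBX3 libraries held 336, 339 and 374 CPM and the TBX4 libraries 367, 359 and 356 CPM, all above the Ctl libraries. With TBX3 and TBX4, 13.9% and 13.4% of all tested genes lay wholly above Ctl. Neither group passed the test for FTL against EV or Ctl.

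FTH1 (ENSG00000167996, chromosome 11) was far lower than FTL, with 54 to 158 counts in a library and a median of 9.83 CPM per kb of canonical transcript against 410 for FTL. These counts are uncertain. The annotation holds 25 numbered FTH1 pseudogenes, with 748 counts in all against 2020 on FTH1 itself, and 63.2% of the exon bases of FTH1 also lie in exons of BEST1 on the other strand. The authors counted at the default settings of featureCounts, which leave out reads that match several places or several genes, and the part of either in the low FTH1 counts was not tested. FTH1 held 13.0, 14.5 and 16.7 CPM with TBX2, 11.7, 13.7 and 10.1 CPM in EV and 9.02, 9.67 and 13.5 CPM in Ctl. The groups overlapped. FTH1 rose with TBX2 against EV (log2 fold change 0.33 ± 0.13, adjusted p = 0.0875, edgeR) and against Ctl (0.45 ± 0.15, adjusted p = 0.0445, edgeR), but the call against EV was lost in 9 of 14 alternatives and that against Ctl in 5 of 14. The call against EV was lost without EV replicate a or c or TBX2 replicate b or c, with a log2 fold change of 0.20 without EV replicate c, and that against Ctl without Ctl replicate a or b or TBX2 replicate c. In 5 of 6 groups the library with the largest share of ENSG00000266658 had the highest FTH1 level, and the part of this share in the FTH1 values was not tested. The lowest value, 5.99 CPM, was in TBX5 replicate a, whose other replicates held 15.1 and 12.5 CPM.

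Of the iron regulatory proteins, ACO1 was lower with TBX2, TBX3 and TBX4 than in EV. ACO1 (ENSG00000122729, chromosome 9, canonical transcript 32384641 to 32454767) held 34.3, 33.2 and 33.8 CPM in EV and 28.2, 30.5 and 30.3 CPM in Ctl. With TBX2 it held 25.3, 25.7 and 24.8 CPM, below every library of both controls. Of all tested genes, 17.7% lay wholly below EV and 16.8% wholly below Ctl with TBX2. ACO1 fell with TBX2 by 0.41 on the log2 scale against EV (SE 0.08, adjusted p = 0.00143, edgeR) and by 0.23 against Ctl (SE 0.08, adjusted p = 0.0645, edgeR). The call against EV held in 13 of 14 alternatives and was lost by library totals, whereas that against Ctl held in 7 of 14. It was lost with DESeq2 and without Ctl replicate b or c or TBX2 replicate a or c. The TBX3 libraries held 28.4, 24.0 and 28.8 CPM, and ACO1 fell by 0.31 against EV (SE 0.08, adjusted p = 0.0242, edgeR), where 12.2% of all genes were called. The TBX4 libraries held 28.8, 27.4 and 28.7 CPM, and ACO1 fell by 0.26 against EV (SE 0.07, adjusted p = 0.0314, edgeR), where 9.27% of all genes were called. Against Ctl, where 10.7% and 11.6% of all genes were called, ACO1 stood at -0.12 ± 0.09 with TBX3 and -0.07 ± 0.08 with TBX4 and did not pass. The TBX4 call was lost with DESeq2 and without TBX4 replicate b (adjusted p = 0.105, edgeR), and it held without TBX4 replicate c (adjusted p = 0.0604, edgeR). EV lay above Ctl for ACO1 too, by 0.18 ± 0.07, which did not pass (adjusted p = 0.453, edgeR). With TBX5, 29.4, 33.9 and 27.7 CPM overlapped both controls.

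IREB2 (ENSG00000136381, chromosome 15, canonical transcript 78730558 to 78793795), which encodes the iron regulatory protein that is broken down when iron is plentiful, was higher with TBX4 than in EV. It held 40.4, 41.1 and 43.0 CPM in EV, 45.3, 44.7 and 37.1 CPM in Ctl and 47.0, 46.1 and 53.9 CPM with TBX4. IREB2 rose with TBX4 against EV (log2 fold change 0.23 ± 0.07, adjusted p = 0.0624, edgeR). The call rests on TBX4 replicate c, the library whose label ends in TBX5: without it the log2 fold change was 0.16 (adjusted p = 0.255, edgeR), and it was also lost with DESeq2 and without EV replicate a or b. Against Ctl the TBX4 libraries were again the higher, at 0.20 ± 0.08, without passing (adjusted p = 0.152, edgeR). With TBX5, 54.1, 46.0 and 43.9 CPM lay above EV (0.22 ± 0.08, adjusted p = 0.139, edgeR), as for 12.4% of all tested genes. TBX2 and TBX3 overlapped both controls.

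Neither iron transporter passed the test in any of the 8 comparisons of a TBX with a control. SLC11A2 (ENSG00000110911, chromosome 12) ranged from 29.8 to 41.8 CPM over the 18 libraries. The lowest value was in EV replicate a, whose other replicates held 34.3 and 37.1 CPM, and the highest in TBX3 replicate b. Its most separate values were those of TBX2, with 34.5, 33.1 and 32.1 CPM, all below the 36.6 to 38.3 CPM of Ctl (log2 fold change -0.17 ± 0.08, adjusted p = 0.140, edgeR). With TBX2, 16.8% of all tested genes lay wholly below Ctl. SLC40A1 (ENSG00000138449, chromosome 2) had 8 to 32 counts in a library, or 1.18 to 2.65 CPM, above the 3 counts taken as the smallest detectable. Its standard errors of 0.25 to 0.33 on the log2 scale against either control left a change of that size undetectable at this depth. At an unadjusted p under 0.05, edgeR's quasi-likelihood test had 1 of 8 comparisons for SLC11A2 and 0 of 8 for SLC40A1, and DESeq2 called 0 for both.

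**Figure D2:**
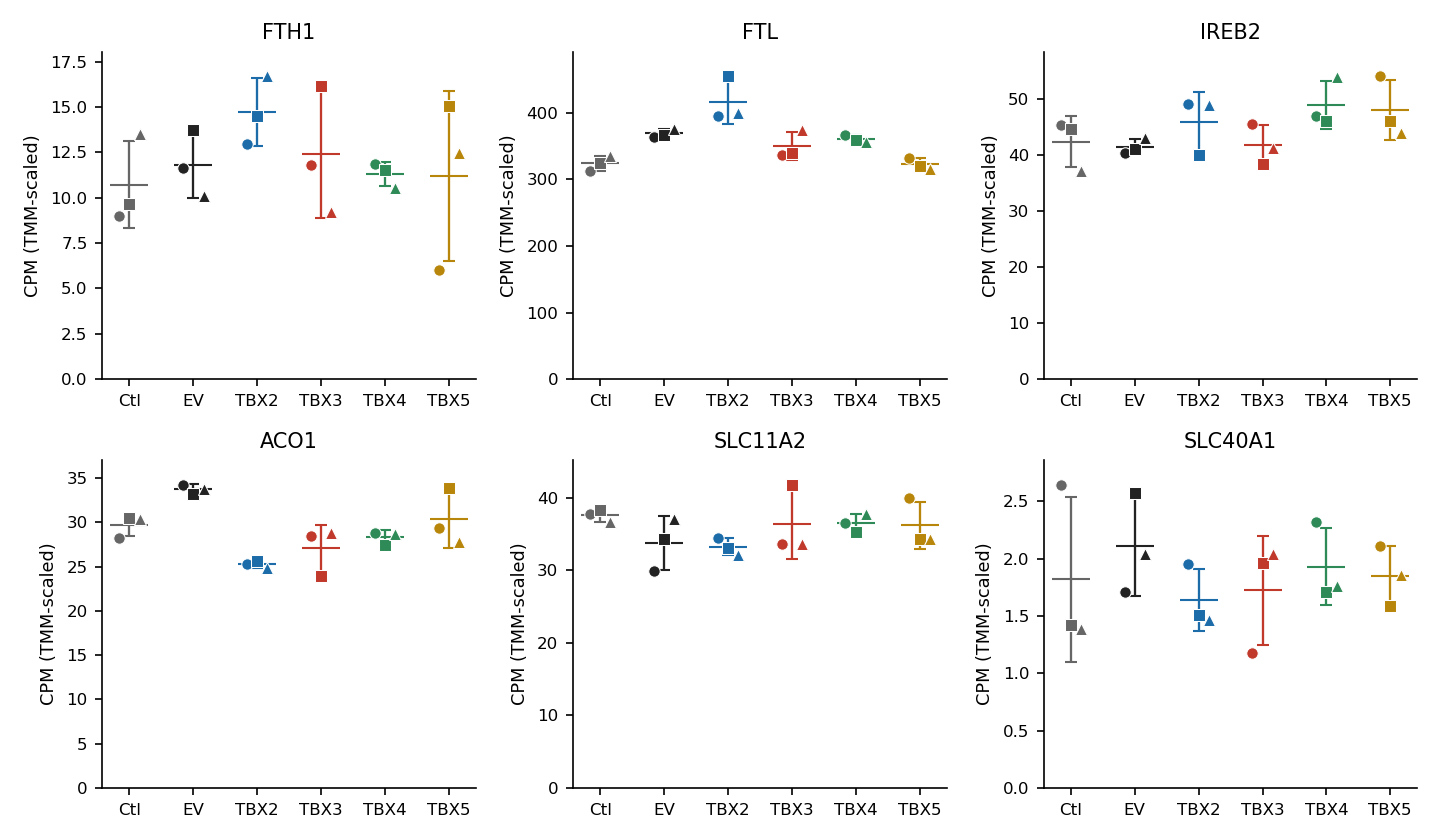
CPM on TMM-scaled library sizes of the 6 other genes by group; circles, squares and triangles are replicates a, b and c, and bars give the mean and SD of 3 libraries. The means of FTL and FTH1 were highest with TBX2 and that of ACO1 was lowest there (25.3 ± 0.41 CPM against 33.7 ± 0.55 CPM in EV), while SLC40A1 was at most 2.65 CPM in every library.

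Over the 6 genes and the 4 TBXs, 6 of 24 values passed against EV, 2 up and 4 down, and 3 of 24 against Ctl, 2 up and 1 down. TBX2 had 2 of 6 called against EV and 3 of 6 against Ctl, beside 26.7% and 25.8% of all tested genes. TBX3 had 1 and 0, TBX4 had 2 and 0 and TBX5 had 1 and 0, against backgrounds of 12.2% and 10.7%, 9.27% and 11.6%, and 8.97% and 7.65% in the same order. With 6 genes these counts cannot be set apart from those shares, and nothing about iron handling as a group is read from them. The median log2 fold change of the 6 genes ran from -0.155 (TBX5 against EV) to 0.0874 (TBX4 against Ctl) in the comparisons of a TBX with a control, beside medians of all tested genes from -0.0051 to 0.0104. Of the comparisons with 0 calls by edgeR's quasi-likelihood test, TBX3 and TBX5 against Ctl had 0 at an unadjusted p under 0.05, TBX4 against Ctl and EV against Ctl had 2 each, and DESeq2 called 0 in all of them. Genes that passed against EV and not against Ctl are not thereby shown to differ between the controls, and for the 6 genes EV against Ctl gave no call. The 4 comparisons with EV share its 3 libraries, as do those with Ctl.

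**Figure D3:**
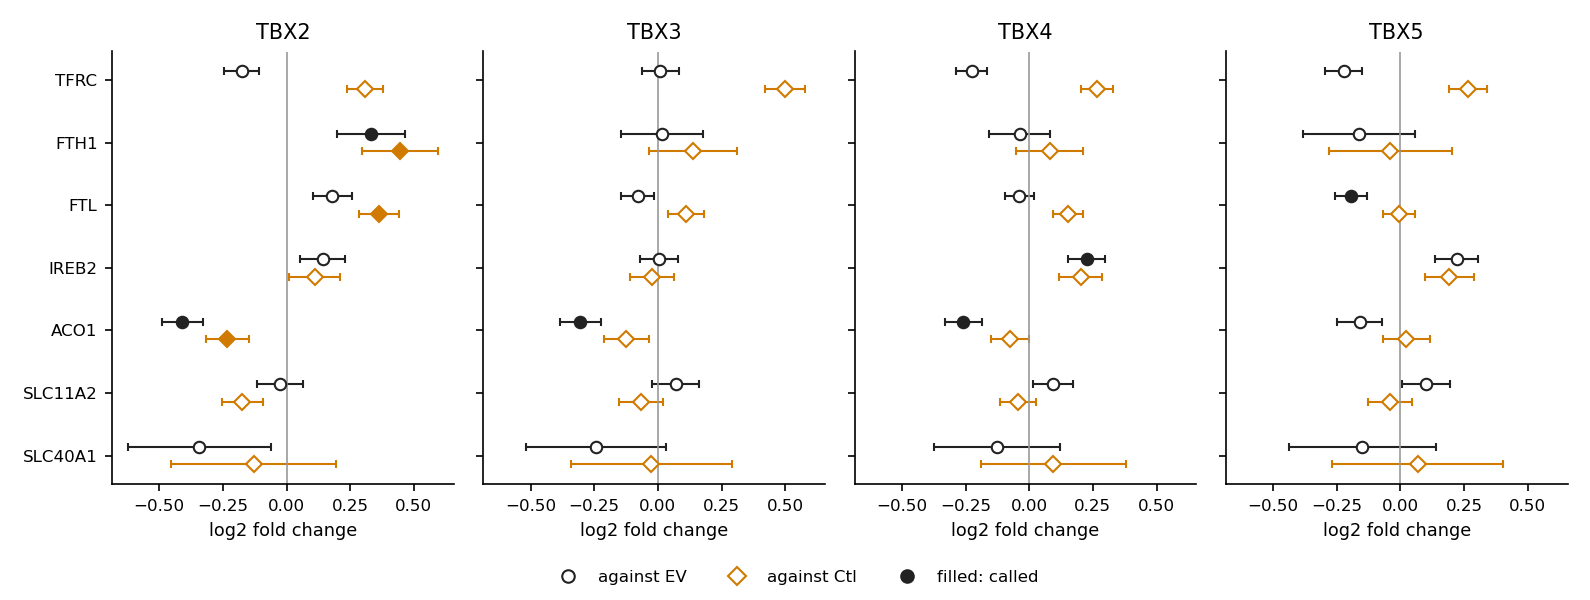
Log2 fold changes with standard errors of the 7 genes for each TBX against EV (circles) and Ctl (diamonds), 3 libraries a group; filled symbols have an adjusted p under 0.1 by edgeR's quasi-likelihood test, and TFRC was not tested. TFRC lies on opposite sides of 0 for TBX2, TBX4 and TBX5, and ACO1 is filled on the negative side for TBX2 (-0.41 and -0.23).

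Compared with each other in 1 fit of 18 libraries, the TBX groups differed mainly in FTL, which was higher with TBX2 than with TBX3, TBX4 and TBX5. The log2 fold change was 0.25 ± 0.07 against TBX3 (adjusted p = 0.0115, edgeR), 0.21 ± 0.07 against TBX4 (adjusted p = 0.0454, edgeR) and 0.37 ± 0.07 against TBX5 (adjusted p = 0.000408, edgeR). The TBX2 libraries lay wholly above the other 3 groups, as did those of 12.9%, 12.7% and 12% of all tested genes. In these pairs 15.5%, 12.3% and 12.1% of all genes were called. TBX3 and TBX5 were in another plasmid backbone than TBX2, which cannot be told apart from the TBX. The call against TBX4 was lost without TBX4 replicate c (adjusted p = 0.116, edgeR), without TBX4 replicate b and without TBX2 replicate b, and by library totals its value turned to -0.04. ACO1 was lower with TBX2 than with TBX5 by -0.26 ± 0.09 (adjusted p = 0.0739, edgeR), a call that was kept in 4 of 13 alternatives and was lost without any single TBX2 library and without TBX5 replicate a or b. None of the 6 genes passed between TBX3 and TBX4, TBX3 and TBX5 or TBX4 and TBX5, where 9.97%, 7.41% and 0.539% of all genes were called, while each of these pairs had 1 at an unadjusted p under 0.05 by edgeR and DESeq2 called 0. For TFRC, TBX3 stood above TBX4 by 0.23 ± 0.08 and above TBX5 by 0.23 ± 0.08, the former turning to -0.08 by library totals, and TBX4 and TBX5 differed by 0.00 ± 0.08.

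The other genes of iron handling were taken from a list of 42, of which 32 were tested. With TBX2, 7 were up and 6 down against EV (beside 26.7% of all tested genes called in either direction), and 8 up and 5 down against Ctl (25.8%). TBX3 had 3 up and 3 down against EV (12.2%) and 6 up against Ctl (10.7%). TBX4 had 0 against EV (9.27%) and 4 up against Ctl (11.6%), and TBX5 had 1 up and 1 down against EV (8.97%) and 4 up against Ctl (7.65%). For TBX4 against EV, 5 were under an unadjusted p of 0.05 by edgeR's quasi-likelihood test and DESeq2 called 0. Medians of the 32 genes lay between -0.09 and 0.04 on the log2 scale. In the same direction against both controls, TBX2 called 6 up and 4 down, TBX3 3 up, TBX4 0 and TBX5 1 up, beside 18.8%, 6.36%, 5.23% and 4.69% of all tested genes. Both comparisons of a TBX share its 3 libraries. For TBX4, 1 of the 32 was under an unadjusted p of 0.05 against both controls by edgeR's quasi-likelihood test, and DESeq2 called 0. The identifier that the symbol NCOA4, the receptor that delivers ferritin for breakdown, has in the annotation used here (ENSG00000266412) was listed at 0 in every library. The counts were made with an earlier annotation, in which a gene can stand under another identifier, so no level of NCOA4 is read from this row. The mitochondrial ferritin FTMT was listed at 0 in every library, and the hormone HAMP, which closes ferroportin, had at most 3 counts.

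Among the haem genes, HMOX1, the haem oxygenase that frees iron from haem, had the largest change. It held 19.6, 19.3 and 17.7 CPM with TBX2, 7.88, 8.69 and 9.83 CPM in EV and 7.35, 8.17 and 8.13 CPM in Ctl. With TBX2, HMOX1 rose by 1.09 ± 0.12 against EV (adjusted p = 2.39e-06, edgeR) and by 1.26 ± 0.11 against Ctl (adjusted p = 8.7e-07, edgeR), and both calls held in all 14 alternatives. It was also called up against Ctl with TBX3 (0.50, adjusted p = 0.0234, edgeR), TBX4 (0.42, adjusted p = 0.0402, edgeR) and TBX5 (0.54, adjusted p = 0.0429, edgeR). Against EV, HMOX1 stood at 0.32, 0.24 and 0.36 in the same order and did not pass. The haem exporter FLVCR1 rose with TBX2 by 0.33 ± 0.10 and 0.37 ± 0.10 against EV and Ctl, the first call being lost with DESeq2 and without EV replicate c or TBX2 replicate a. ISCU, the scaffold on which iron-sulfur clusters are built, rose with TBX2 by 0.50 ± 0.08 and 0.32 ± 0.08.

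Of the uptake and sensing genes, FBXL5 fell with TBX2. FBXL5 is the ubiquitin ligase subunit that senses iron and marks IRP2 for breakdown, and its log2 fold change was -0.41 ± 0.07 against EV (adjusted p = 0.000541, edgeR) and -0.36 ± 0.07 against Ctl (adjusted p = 0.00197, edgeR). The metal transporter SLC39A8 and the ferric reductase CYBRD1 were lower with TBX2, at -0.33 ± 0.10 and -0.32 ± 0.10 against EV and -0.29 ± 0.11 and -0.35 ± 0.09 against Ctl. The calls of both against EV were lost without EV replicate c, and that of SLC39A8 against Ctl was lost with DESeq2 and without Ctl replicate a or b or TBX2 replicate b or c. Another metal transporter of the same family, SLC39A14, rose with TBX2 by 0.29 ± 0.07 and 0.47 ± 0.09. With other TBXs these genes had calls up against Ctl that did not pass against EV. They were FBXL5 with TBX4 (0.17, adjusted p = 0.0903, edgeR), SLC39A8 with TBX5 (0.28, adjusted p = 0.0796, edgeR) and SLC39A14 with TBX4 (0.27, adjusted p = 0.0365, edgeR). BMP6, the ligand by which iron stores induce HAMP in liver, rose with TBX5 by 0.51 ± 0.13 against EV (adjusted p = 0.0268, edgeR) and 0.93 ± 0.15 against Ctl (adjusted p = 0.00148, edgeR), from 14.8 to 20.8 CPM against 7.72 to 12.7 CPM in the controls. Without EV replicate b or TBX5 replicate c its call against EV was lost. BMP6 was also called up against Ctl with TBX2 (0.43, adjusted p = 0.0470, edgeR) and TBX4 (0.46, adjusted p = 0.0258, edgeR), without passing against EV. With TBX3 it was called down against EV (-0.33, adjusted p = 0.0806, edgeR) and did not pass against Ctl.

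Of the proteins known to act on the TFRC message, Regnase-1 (ZC3H12A), an RNase that degrades it, rose with TBX3, from 3.20, 3.01 and 4.28 CPM in EV and 2.94, 2.84 and 3.67 CPM in Ctl to 6.95, 8.30 and 7.17 CPM. The log2 fold change of ZC3H12A was 1.03 ± 0.17 against EV (adjusted p = 0.00104, edgeR) and 1.23 ± 0.17 against Ctl (adjusted p = 0.00014, edgeR). The roquin genes RC3H1 and RC3H2, whose proteins bind stem-loops in messages that are then degraded, also moved. RC3H1 rose with TBX3 by 0.41 ± 0.06 and 0.33 ± 0.07 against EV and Ctl and with TBX2 by 0.34 ± 0.07 and 0.25 ± 0.07, the last being lost without Ctl replicate b. RC3H2 rose with TBX2 by 0.51 ± 0.07 and 0.59 ± 0.07. Against Ctl and not against EV, RC3H2 was also called up with TBX3 (0.24, adjusted p = 0.0293, edgeR) and ZC3H12A with TBX5 (0.70, adjusted p = 0.0625, edgeR). CDC14A, a phosphatase gene, rose with TBX3 by 0.50 ± 0.11 and 0.35 ± 0.11, the call against Ctl being lost with DESeq2 and without Ctl replicate b or c or TBX3 replicate c, and its canonical transcript held a match to the hairpin letters in the 3′ untranslated region. EPAS1 and CDC42BPA, listed with CDC14A as messages with an iron-responsive element, held no match in the transcripts searched, so the search can miss such elements. MYC and HIF1A, also listed as regulators of TFRC, were called in the same direction against both controls by no TBX. MYC means were 101 CPM in Ctl, 112 in EV, 105 in TBX2, 121 in TBX3, 101 in TBX4 and 96.0 in TBX5. HIF1A means were 130, 127, 137, 135, 121 and 122 CPM in the same order. Of the 5 listed regulators, 4 were called up with TBX3 against Ctl and 1 down with TBX5 against EV. There 10.7% and 8.97% of all tested genes were called. With TBX3, TFRC itself stood at 0.01 ± 0.07 against EV and 0.50 ± 0.08 against Ctl, and a relation between these genes and TFRC was not tested.

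**Figure D4:**
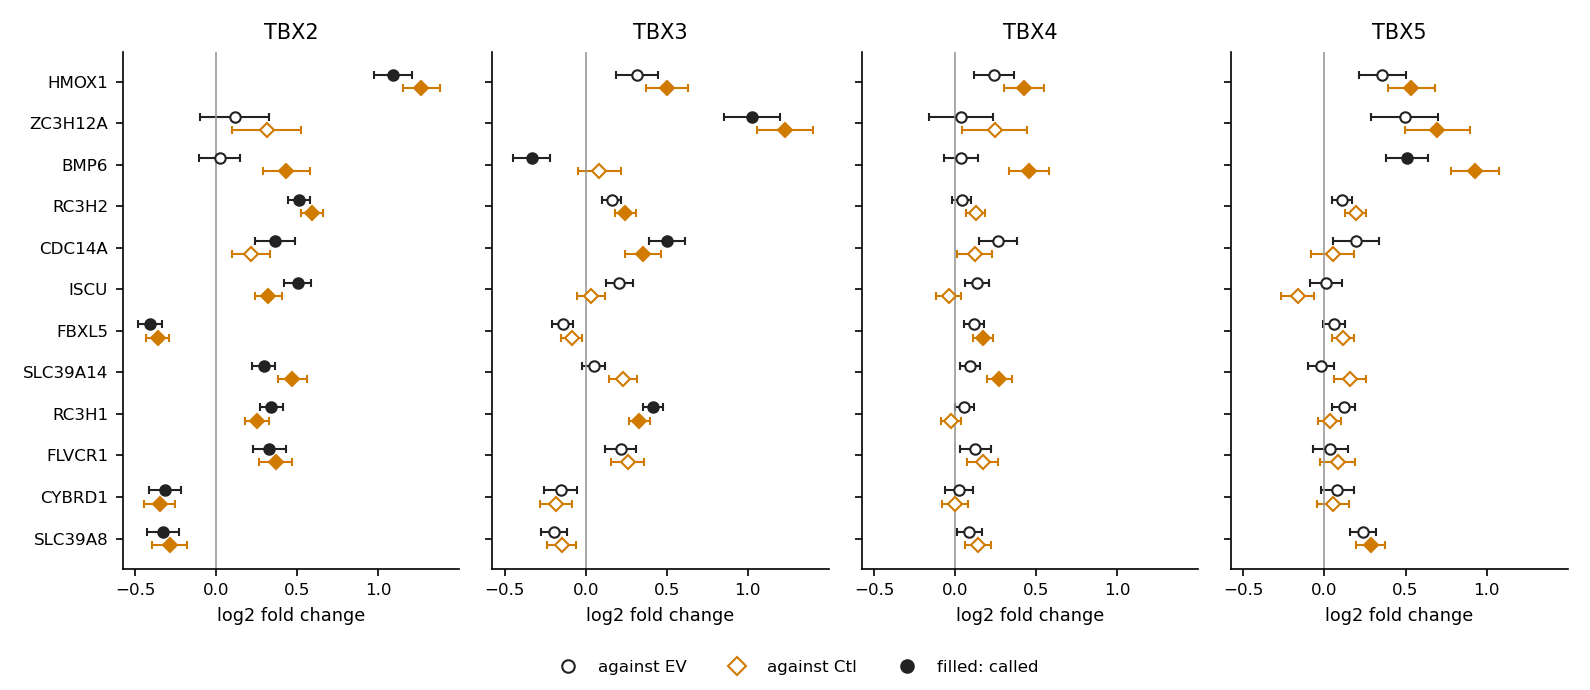
Log2 fold changes with standard errors of 12 further iron genes for each TBX against EV (circles) and Ctl (diamonds), 3 libraries a group; filled symbols have an adjusted p under 0.1 by edgeR's quasi-likelihood test. HMOX1 is highest with TBX2 (1.09 and 1.26) and ZC3H12A with TBX3 (1.03 and 1.23), and no gene is filled for both controls with TBX4.

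Across the 18 libraries, the genes whose log2 CPM was most like that of TFRC were PCNX1 (Pearson r = 0.79), PLEKHB2 (0.77), SMG1 (0.77), FAR1 (0.75) and P4HA2 (0.75), out of 15575 others. Those least like it were IQGAP3 (-0.80), CIT (-0.80), ABR (-0.79), APEX1 (-0.75) and FAM72D (-0.75). Like TFRC, PCNX1 was highest in EV and TBX3, with means of 116 and 115.5 CPM, but its lowest mean was in TBX5 (106.0 CPM) and not in Ctl (107 CPM). IQGAP3 and ABR were highest in Ctl, with 52.5 and 92.8 CPM. Of the iron genes, FTL had an r of 0.43, near the 95th percentile of all genes (0.43), SLC40A1 of 0.27, ACO1 of 0.06, IREB2 of 0.00, FTH1 of -0.11 and SLC11A2 of -0.20. These values are a description: the 18 points share 6 group means, the library sizes and the scaling.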

How the data were processed

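Paired-end reads of 18 NCI-H1299 libraries were aligned by the authors with STAR 2.3.0 to GRCh37 and counted per Ensembl gene with featureCounts, and the deposited values are raw counts, with no normalization or filter. Symbols were matched through the annotation. All 7 members and all 42 genes of the wider list matched. The members and lists were chosen with earlier results of these data known. Groups and replicate letters came from the labels.

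The 15576 genes whose count exceeded 5 in 10 or more libraries were tested with the quasi-likelihood test of edgeR 4.0.16 in R 4.3.3, with TMM scaling and Benjamini-Hochberg adjustment over all of them. The threshold was an adjusted p of 0.1. Each TBX was compared with EV and with Ctl in fits of 6 libraries, and TBX pairs in 1 fit of 18. The study compared each TBX with NCI-H1299 controls and does not say whether EV and Ctl were pooled. Pooling them is an alternative here. Each standard error was obtained by dividing the size of the log2 fold change by the root of its F value. The method was tested on simulated data. Totals of 7365221 to 11743179 counts limit low genes, and a floor of 3 counts covers counting error only.

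Of the wider list, the text names genes called in the same direction against both controls by at least 1 TBX, at most 12 by mean absolute change, and the 5 genes most and 5 least like TFRC (log2 CPM, prior count 2). NCOA4, FTMT, HAMP, MYC, HIF1A, EPAS1 and CDC42BPA were named after their values were seen. Alternatives were DESeq2 1.42.0, its size factors, no filter, a minimum of 10 counts throughout, scaling by library totals, a replicate block, pooled controls, other sets of libraries in the fit, and each library left out. Hairpins were searched in GENCODE transcripts on GRCh37, and the promoter came from a RefSeq table on GRCh38.p14, which held 6 of the 7 members.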

Additional observations from a re-analysis of the deposited data

How the results depend on the processing

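Direction and call held in most alternatives for ACO1 with TBX2 and TBX3 against EV and for FTL with TBX2 against Ctl, TBX3 and TBX5, each lost only by library totals. Scaled by library totals, the number of called genes among the 6 other than TFRC fell to 0 from 2 (TBX2 against EV), 3 (TBX2 against Ctl), 1 (TBX3 against EV), 2 (TBX4 against EV), 1 (TBX5 against EV), 1 (TBX2 against TBX3), 1 (TBX2 against TBX4) and 2 (TBX2 against TBX5), and rose from 0 to 5 for TBX4 against Ctl and to 4 for TBX4 against TBX5, where this scaling called 10008 and 6518 of all 15576 genes, 9930 and 6506 of them upwards. The cause was not tested. DESeq2 gave 1 for TBX2 against EV and against TBX5 and 0 for TBX4 and TBX5 against EV. Without a filter, 1 remained for TBX2 against EV and 0 for TBX2 against TBX4. With at least 10 counts in every library, TBX4 against Ctl had 1. Pooled controls gave 1 for TBX3 against Ctl, TBX4 against EV and TBX4 against Ctl and 0 for TBX5 against EV, 1 fit of 18 libraries gave 1 for TBX4 against EV, and the pair fitted alone 1 for TBX2 against TBX5. With single libraries left out, counts ranged from 1 to 3 for TBX2 against EV and against Ctl, from 1 to 2 for TBX4 against EV and TBX2 against TBX5, and from 0 to 1 for TBX4 against Ctl, TBX5 against EV and TBX2 against TBX4. Signs turned for TFRC with pooled controls (TBX2 against EV 0.042, TBX4 against Ctl -0.0011, TBX5 against Ctl -0.00096) and, by library totals, for TFRC between TBX3 and TBX4 (-0.078), FTL between TBX2 and TBX4 (-0.037) and ACO1 between TBX2 and TBX5 (0.065).

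The replicate letters did not pair the libraries: deviations of the 45 same-letter pairs had a mean r of 0.00043, and the 90 others -0.000185. With the letter as a replicate block, TBX2 against EV had 1 call and TBX5 against EV 0. Over all genes, DESeq2 called fewer than edgeR, for example 2484 against 4153 for TBX2 against EV and 30 against 60 for EV against Ctl, and library totals called 285 and 17. SLC40A1 had 8 to 32 counts in a library, which limited its precision.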
